A study of Mus musculus with 4 samples.

Results

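The 10 genes described here encode subunits of the transcription factor AP-1 (Fos, Fosb, Fosl1, Fosl2, Jun, Junb, Jund), its relative Atf3, and the immediate early gene products Egr1 and Ier2. They were chosen by name from the 54842 genes of the count table, after matching Ensembl identifiers to symbols, and all 10 were found once and passed the filter on low counts, as did 25085 genes in all. RNA sequencing after depletion of ribosomal RNA was performed on mouse embryonic fibroblasts (MEF cells), with 2 libraries from wt cells and 2 from Top2β-null cells, both untreated and grown in the same serum-containing medium. The Top2β-null MEF cells came from mice without a functional Top2b gene and were a gift from other laboratories. Whether the wt MEF cells of these libraries share that origin is not stated. The origin of the cells and the loss of Top2β therefore cannot be told apart. Whether either line is 1 clone, or the libraries of a genotype come from separate cultures, is not given in the sources used here, so that p-values measure the spread between these libraries, which may be technical.

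Immediate early genes are transcribed soon after cells meet growth factors, serum or stress, without the need for new protein synthesis. MAP kinases start this response by acting on factors that are already present, such as Srf with its Elk partners, and many of the products are transcription factors. AP-1 is a dimer held together by a leucine zipper: Jun proteins pair with each other or with Fos proteins, whereas Fos proteins need a Jun partner to bind DNA. Fosl1 and Fosl2 encode FRA-1 and FRA-2, which accumulate later and more lastingly than Fos in stimulated fibroblasts. Topoisomerase 2β relaxes DNA by cutting and resealing both strands, and in stimulated neurons it is known to cut at promoters of early response genes.

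In the Top2β-null libraries 6 of the 10 genes stood higher and 4 stood lower, and all 10 passed an adjusted p below 0.05 (quasi-likelihood test of edgeR, Benjamini-Hochberg adjusted over all genes and repeat families). Among the 16656 genes with a mean over 100 normalized counts, 37.3% were higher and 40.3% lower by the same rule. Passing this test therefore sets the 10 genes little apart. The 16656 genes are not matched for abundance, since the means of the 10 genes run from 404 (Fos) to 44261 (Fosl2). A gene was called when it also changed more than 2-fold and had a mean over 100 normalized counts. By this rule Egr1, Fos, Fosb and Fosl2 were called higher, 4 of 10 against 8.32% of the 16656 genes, and Jund, Ier2 and Atf3 were called lower, 3 of 10 against 7.91%. The 3 others, Jun, Fosl1 and Junb, moved by less than 2-fold. The groups did not overlap for any of the 10 genes, which was also true of 88.6% of the 16656 genes. The median log2 fold change of the 10 genes was 0.30, against -0.02 for the 16656 genes, and the median absolute change was 1.15 against 0.35.

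**Figure D1:**
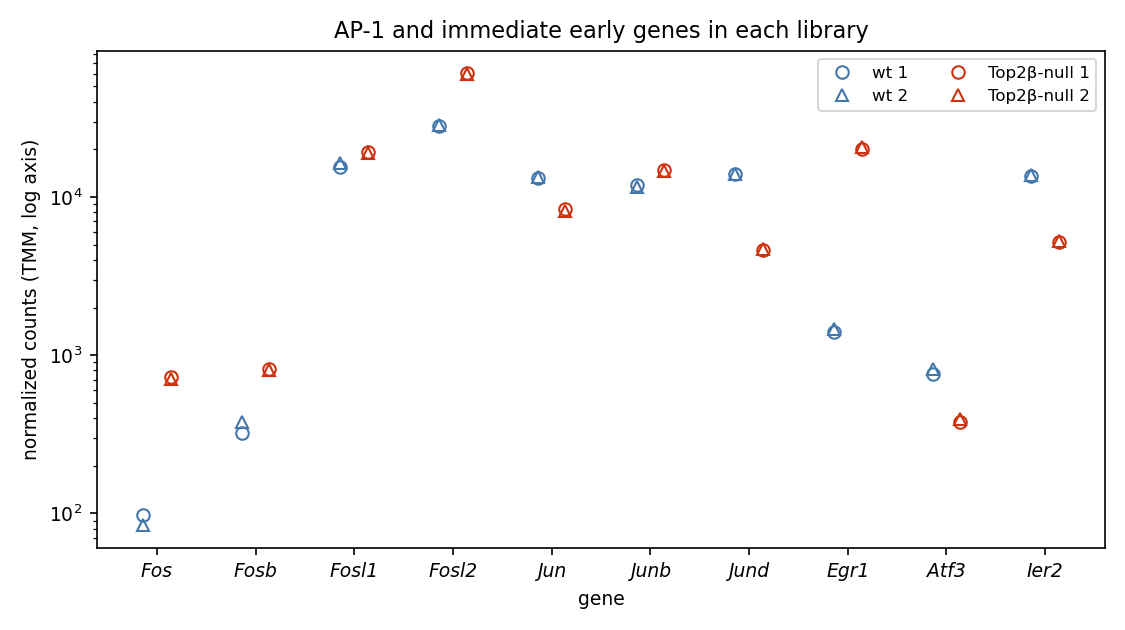
Normalized counts (vertical axis, logarithmic, without unit) of the 10 genes (horizontal axis), with 1 point for each library: blue for wt, red for Top2β-null, circles for replicate 1 and triangles for replicate 2. The 2 libraries of each genotype lie close together, and Fos and Egr1 show the widest gaps between genotypes.

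Promoters of the called Fos family genes, Fos, Fosb and Fosl2, and of Jun, which fell, are shown to compare the sequences next to the start sites of genes that moved in opposite directions. Promoter windows from RefSeq were at hand for 7 of the 10 genes (Fos, Fosb, Fosl2, Jun, Junb, Jund and Atf3), and each runs from 250 bases before to 50 bases after the start site on GRCm38.p6. The windows are chr12:85473640-85473939 on the forward strand for Fos, chr7:19309996-19310295 on the reverse strand for Fosb, chr5:32136222-32136521 on the forward strand for Fosl2 and chr4:95052173-95052472 on the reverse strand for Jun. They are written 5′ to 3′ along the strand of the gene, and capitals mark matches to any of 8 motifs on either strand.
Fos: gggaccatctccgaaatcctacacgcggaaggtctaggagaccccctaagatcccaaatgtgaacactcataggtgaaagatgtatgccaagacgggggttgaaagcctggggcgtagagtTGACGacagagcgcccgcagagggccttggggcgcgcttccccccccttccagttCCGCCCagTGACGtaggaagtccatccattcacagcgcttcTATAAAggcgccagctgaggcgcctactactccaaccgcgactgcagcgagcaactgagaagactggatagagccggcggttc
Fosb: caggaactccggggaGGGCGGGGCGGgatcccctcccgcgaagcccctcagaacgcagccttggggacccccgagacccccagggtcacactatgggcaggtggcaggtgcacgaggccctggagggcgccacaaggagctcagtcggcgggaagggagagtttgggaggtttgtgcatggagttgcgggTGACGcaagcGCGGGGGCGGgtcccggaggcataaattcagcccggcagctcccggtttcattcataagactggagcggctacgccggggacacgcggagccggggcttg
Fosl2: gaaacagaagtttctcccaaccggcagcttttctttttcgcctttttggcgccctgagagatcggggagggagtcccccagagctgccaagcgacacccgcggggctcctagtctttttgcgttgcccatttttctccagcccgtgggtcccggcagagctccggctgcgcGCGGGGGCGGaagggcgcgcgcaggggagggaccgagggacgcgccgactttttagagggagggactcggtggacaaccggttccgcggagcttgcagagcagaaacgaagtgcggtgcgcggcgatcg
Jun: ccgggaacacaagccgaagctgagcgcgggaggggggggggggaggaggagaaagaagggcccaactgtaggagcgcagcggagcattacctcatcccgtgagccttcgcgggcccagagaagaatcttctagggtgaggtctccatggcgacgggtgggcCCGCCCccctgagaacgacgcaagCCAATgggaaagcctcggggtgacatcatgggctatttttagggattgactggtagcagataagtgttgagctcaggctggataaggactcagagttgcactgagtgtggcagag

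Both strands were searched for the AP-1 site TGANTCA and for the cAMP response element TGACGTCA, and, as an addition made after the windows were seen, for the core of that element, TGACG. The zinc finger motifs were the Egr site GCGNGGGCG and the GC box GGGCGG, to which Sp factors bind. The others were the CArG box bound by Srf, the TATA box written as TATAAA, and the CCAAT motif of factor NF-Y. The core TGACG lies within TGACGTCA, and GGGCGG can share letters with GCGNGGGCG. The Egr site was found in 2 of the 7 windows, those of Fosb and Fosl2, against 5.55% of all 32851 windows. TGACG was found in 4 of 7 (Fos, Fosb, Junb and Atf3) against 20.8%, and the window of Fos holds it at 129 and 66 bases before the start site. TATAAA was found in Fos and Junb, 2 of 7 against 13.6%, and in Fos it begins 33 bases before the start site. CCAAT was found in Jun, Junb and Atf3, 3 of 7 against 37.4%, and GGGCGG in 5 of 7 against 35.7%. Exact matches to the AP-1 site TGANTCA (7.81% of all windows), TGACGTCA (1.79%) and the CArG box (1.63%) are not in these 7 windows. This says nothing of the sequence outside them, or of sites that differ from the searched letters. The Jun window holds tgacatca, for instance, which is close to TGACGTCA but was not searched for. The Jund window held none of the 8 motifs and had a GC content of 46.7%, against 58.7% to 68.3% in the 6 others. The RefSeq starts do not all match the outermost GENCODE starts: that of Jund lies 1210 bases ahead of the GENCODE start, while that of Atf3 lies 34.7 kb and that of Fosl2 671 bases inside the GENCODE gene, and the others lie within 30 bases.

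Top2b, the gene targeted in the null cells, was checked first. Its normalized counts were 18259 and 18465 in wt, against 3879 and 3789 in Top2β-null cells, or 20.9% of the wt mean, in the direction of the labels. The deposited counts summed to between 133116830 and 149647278 per library, repeats took 19.3% to 21.4% of them and mitochondrial genes 1.02% to 1.23%. Of 10 fibroblast markers, 9 were tested, and their summed normalized counts were 883735 and 898984 in wt and 555218 and 560369 in Top2β-null libraries. Col1a1 and Vim make up most of that sum and fell, while 4 of the 9 rose (Dcn, Thy1, Pdgfrb and Pdgfra). Dcn, a matrix proteoglycan gene, went from 226 and 223 to 7053 and 7239 normalized counts. Lum had at most 4 counts in any library. Of 8 leukocyte markers, 2 were tested (Cd14 and Itgam, summing to 779 to 784 in wt, against 761 to 783 in Top2β-null libraries, of which Itgam rose from 1 and 1 to 27 and 29 raw counts), and Tyrobp and Adgre1 had 0 counts in all 4. Of 6 epithelial markers, 2 were tested (29.3 to 43.5 and 8.29 to 9.90), with Epcam at 3 counts or fewer. Endothelial markers, 5 of 6 tested, summed to 172 to 174 and 261 to 262, with Emcn at 1 count or fewer, and of them Kdr rose from 71 and 71 to 196 and 207 raw counts while Tek fell from 43 and 36 to 9 and 4. Neural and glial markers, 4 of 6 tested, summed to 298 to 380 and 357 to 362, with Rbfox3 at 2 counts or fewer, and of them Sox10 fell while Syt1 rose. The part of these differences in the results that follow was not tested.

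Fos encodes the founding Fos protein and lies on chromosome 12 of GRCm38 from 85473890 to 85477273, on the forward strand, with 4 exons. Its normalized counts were 96.9 and 84.0 in wt, against 724 and 711 in Top2β-null cells. Both wt values rest on fewer than 100 reads (96 and 87 counts), and both Top2β-null values were several times higher. Fos rose 7.93-fold, with a log2 fold change of 2.99 (standard error, SE, 0.100 and edgeR adjusted p = 2.0e-13). Among the 16656 genes, 2.86% rose at least as much. In bulk RNA, more cells with Fos transcripts and more transcripts per cell cannot be told apart.

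Fosb encodes a Fos protein best known from stimulated neurons and lies on chromosome 7 from 19302696 to 19310051, on the reverse strand. The wt libraries held 321 and 380 normalized counts, the Top2β-null libraries 816 and 805. The wt libraries were farther apart than the Top2β-null libraries, but both were below them. The rise was 2.31-fold (log2 fold change 1.21, SE 0.0801, edgeR adjusted p = 1.3e-09).

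Fosl2 lies on chromosome 5 from 32135801 to 32157842, on the forward strand, and was the most highly counted of the 10 genes. In wt it reached 28004 and 28328 normalized counts, compared with 60505 and 60205 without Top2β. The 2 libraries of a genotype were nearly equal, and the log2 fold change was 1.10 (SE 0.0256, edgeR adjusted p = 2.0e-15), or 2.14-fold. Fosl1, on chromosome 19 from 5447547 to 5455946 on the forward strand, held 15464 and 16500 normalized counts in wt, against 19166 and 19101 in Top2β-null cells. Both Top2β-null libraries were above both wt libraries by a small margin. The log2 fold change of Fosl1 was 0.26 (SE 0.0294, edgeR adjusted p = 9.5e-07), which is a rise of 1.20-fold and was not called. Ccdc85b, which overlaps its exons on the other strand, also went up, from 1867 and 2083 to 2425 and 2594 raw counts. All 4 Fos family genes were thus higher in the Top2β-null libraries, with rises from 1.20-fold to 7.93-fold.

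The 3 Jun family genes moved apart. Jund, the subunit that is usually made steadily rather than induced, is a single exon on chromosome 8 from 70698949 to 70700616, on the forward strand. Normalized counts stood at 13943 and 13929 in wt, against 4619 and 4674 in Top2β-null cells. Both Top2β-null libraries lay at about the same low level. Jund was 2.999-fold lower, with a log2 fold change of -1.58 (SE 0.0260, edgeR adjusted p = 2.5e-17), and 3.68% of the 16656 genes fell at least as much. An antisense gene, Gm11175, overlaps its exon and went from 6712 and 7014 raw counts in wt to 2123 and 2240 in Top2β-null libraries. The strand setting of the counting is not given in the sources used here, so reads of both genes cannot be told apart.

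Jun, the founding Jun protein gene and the classical partner of Fos, is a single exon on chromosome 4 from 95049034 to 95052222, on the reverse strand. The wt libraries held 13224 and 13418 normalized counts, the Top2β-null libraries 8369 and 8140. Both Top2β-null libraries were lower, with a log2 fold change of -0.69 (SE 0.0260, edgeR adjusted p = 8.8e-13), or 1.61-fold, and Jun was not called. Its antisense neighbour Junos overlaps it and fell from 1637 and 1703 raw counts to 972 and 952. Junb, which often opposes Jun in growth control, lies on chromosome 8 from 84974484 to 84978718, on the reverse strand. In wt it reached 11901 and 11519 normalized counts, compared with 14847 and 14653 without Top2β. Junb was higher in both Top2β-null libraries by a log2 fold change of 0.33 (SE 0.0259, edgeR adjusted p = 9.6e-09), or 1.26-fold. Prdx2, which overlaps the annotated Junb exons on the other strand, went the other way, from 23576 and 24242 to 15801 and 16800 raw counts.

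Egr1 encodes a zinc finger factor that is induced together with Fos and binds GC-rich sites. It lies on chromosome 18 from 34859823 to 34864984, on the forward strand. Normalized counts stood at 1406 and 1467 in wt, against 20052 and 20770 in Top2β-null cells. Both Top2β-null libraries were far above both wt libraries, by 14.2-fold, and the change was the largest of the 10 genes (log2 fold change 3.83, SE 0.0332, edgeR adjusted p = 1.8e-20). Among the 16656 genes, 2.14% rose at least as much. The genes whose centred log2 values over the 4 libraries lay nearest to those of Egr1 were Ptgr2, Nrp1 and Krba1, at distances of 0.0565, 0.0618 and 0.0700. For Jund, which fell most, they were Mink1, Orc6 and Naaa, at 0.0158, 0.0234 and 0.0236. These distances rest on 4 libraries and largely match genes by the size of their change.

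Ier2 encodes a small nuclear protein of the early serum response and is a single exon on chromosome 8 from 84661331 to 84662852, on the reverse strand. The wt libraries held 13649 and 13792 normalized counts, the Top2β-null libraries 5226 and 5258. The fall was 2.62-fold (log2 fold change -1.39, SE 0.0257, edgeR adjusted p = 1.2e-16). Ier2 and Junb, which rose slightly, are 311.6 kb apart on chromosome 8. Atf3, a stress-induced factor that pairs with Jun proteins and often represses its targets, lies on chromosome 1 from 191170296 to 191218039, on the reverse strand. In wt it reached 761 and 814 normalized counts, compared with 380 and 392 without Top2β. Atf3 fell 2.04-fold (log2 fold change -1.03, SE 0.0720, edgeR adjusted p = 2.6e-09), just past the 2-fold rule. It was not called after scaling to the total count (-0.96), without wt replicate 2 (-0.99) or without Top2β-null replicate 1 (-0.97).

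**Figure D2:**
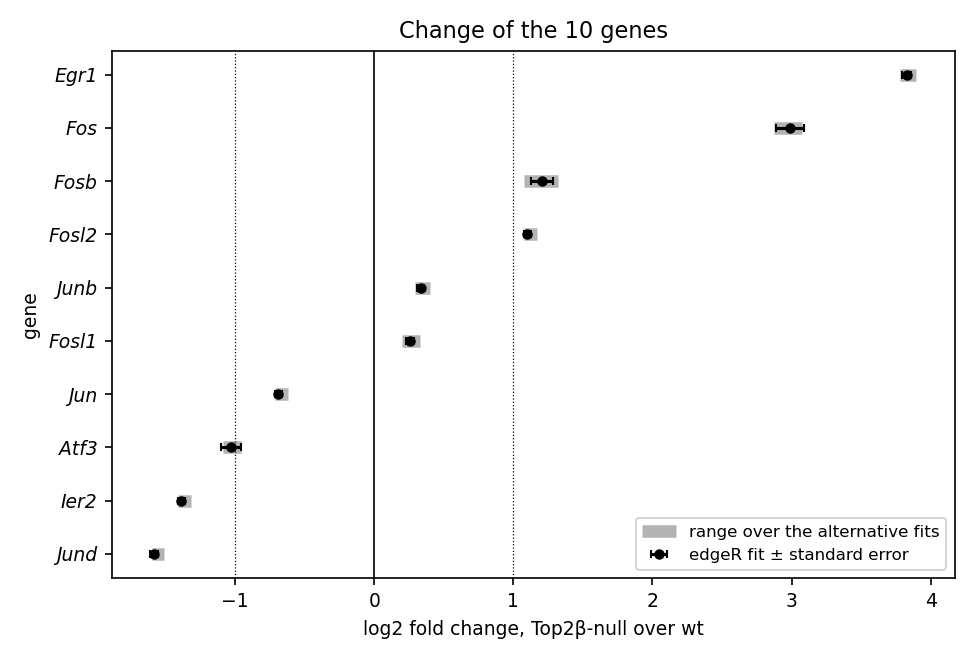
Log2 fold change of Top2β-null over wt (horizontal axis) for the 10 genes (vertical axis), with points and error bars for the edgeR fit and its standard error. Grey bars give the range over the alternative fits, dotted lines mark 2-fold. Egr1 and Fos lie far to the right at 3.83 and 2.99, Jund lies lowest at -1.58, and Atf3 sits on the 2-fold line at -1.03.

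The classical immediate early genes of the set did not move as a block: Fos, Fosb and Egr1 rose while Ier2, Jun and Atf3 fell. Replicates differed little beside these changes, by at most 0.24 on the log2 scale in wt (Fosb) and 0.051 in Top2β-null libraries (Egr1). The 10 genes did not shift together between replicates, since 3 of 10 were higher in wt replicate 1 than in replicate 2, and 6 of 10 in Top2β-null replicate 1 than in replicate 2. The genes are short, between 1522 and 47744 bases. When the exons of all annotated transcripts are merged, Jun, Jund and Ier2 are single exons, and all 3 were lower in the Top2β-null libraries. Atf3, with 5 merged exons, was also lower, while Junb, with 3, was higher. Merged exons do not tell whether a given transcript is spliced.

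To compare levels between genes, counts were divided by the merged exon length of each gene and scaled to the same sum in every library (TPM, relative numbers of transcripts). In wt MEF cells, Ier2 had the highest level at 208 ± 1.15 TPM (SD, n = 2), before Jund at 193 ± 2.62, Fosl1 at 182 ± 5.99, Junb at 118 ± 4.23, Jun at 96.5 ± 0.251 and Fosl2 at 67.2 ± 0.322. Atf3 at 8.45 ± 0.295 TPM, Egr1 at 7.40 ± 0.127, Fosb at 1.30 ± 0.137 and Fos at 0.889 ± 0.101 formed a low group. In Top2β-null MEF cells, Fosl1 led at 237 ± 2.89 TPM (SD, n = 2), before Junb at 162 ± 3.08, Fosl2 at 157 ± 2.09, Egr1 at 115 ± 1.74, Ier2 at 86.8 ± 0.472, Jund at 70.2 ± 0.101 and Jun at 65.3 ± 1.92. Fos at 7.69 ± 0.172 TPM, Atf3 at 4.52 ± 0.0561 and Fosb at 3.27 ± 0.0631 were the lowest. Egr1 thus left the low group, whereas Fos, despite its rise, did not. Neighbours in these orders differed by more than 3 pooled SDs, except Jund and Fosl1 in wt (2.48 pooled SDs) and Junb and Fosl2 in Top2β-null MEF cells (1.68 pooled SDs), and with 2 libraries each these SDs are themselves imprecise.

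The summed level of the 7 Fos and Jun genes was 658 ± 1.40 TPM (SD, n = 2) in wt, against 702 ± 10.3 in Top2β-null cells, and its makeup differed more than its size. The Fos family held 38.1% ± 0.947 of the sum in wt, against 57.7% ± 0.105 in Top2β-null cells (SD, n = 2). Jund fell from 29.3% ± 0.336 to 9.997% ± 0.132 of the sum, and Jun from 14.7% ± 0.00691 to 9.29% ± 0.137. Fosl2 went from 10.2% ± 0.0272 to 22.4% ± 0.0312, Fosl1 from 27.6% ± 0.968 to 33.8% ± 0.0849 and Junb from 17.9% ± 0.604 to 23.0% ± 0.101. Among Jun family transcripts alone, Junb took 29.3% and 28.5% in the wt libraries and 54.5% and 54.3% without Top2β, while Jund took 47.3% and 47.5% against 23.4% and 23.9%. Junb was thus the leading Jun family transcript in both Top2β-null libraries and Jund in both wt libraries. Fos and Fosb together stayed a small part, with Fos at 0.135% ± 0.0150 and 1.09% ± 0.00845. The log2 ratio of summed Fos to summed Jun family levels, which needs no scaling between libraries, was -0.74 and -0.66 in wt, against 0.44 and 0.45 in Top2β-null cells. The means lay 1.15 apart, against a pooled SD of 0.041, and both Top2β-null libraries were above both wt libraries (exact permutation test, two-sided, p = 0.33, and no smaller p is possible with 2 libraries in each group). Reads of Jund, Jun, Junb and Fosl1 cannot be told apart from those of the genes on the other strand named above, and these shares, the order within the Jun family and the ratios carry that limit. With Jund left out of the Jun family, a choice made after seeing the data, the ratio was 0.18 and 0.27 in wt, against 0.83 and 0.85 in Top2β-null cells, and the difference was 0.61. These are levels of transcripts, and the makeup of AP-1 proteins was not measured in these data.

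**Figure D3:**
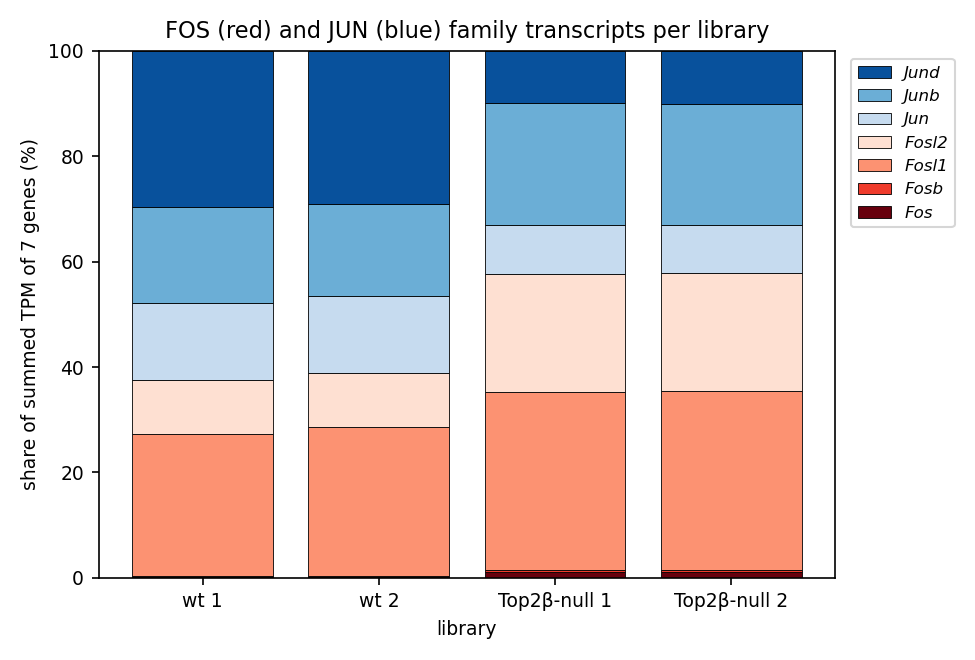
Share of the summed TPM of the 7 Fos and Jun genes (vertical axis, %) in each library (horizontal axis), with the Fos family in reds and the Jun family in blues. The reds reach 38.1% on average in the wt libraries and 57.7% in the Top2β-null libraries, and the darkest blue, Jund, shrinks from 29.3% to 9.997%.

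Other immediate early genes were compared next. Of a list of 34, 33 were tested, of which 15 were higher and 15 lower at an adjusted p below 0.05 and 3 (Klf6, Myc and Nr4a3) did not pass, while 32.8% of all 25085 genes tested were higher and 33.7% lower, and 37.3% and 40.3% of those with a mean over 100. All 33 had a mean over 100 normalized counts, which a call needs. By the full rule 5 were called higher and 6 lower, against 5.52% and 5.25% of all genes tested and 8.32% and 7.91% of those with a mean over 100, and the median log2 fold change was -0.04 against -0.01. Egr3, an Egr1 relative, went from 135 and 171 normalized counts in wt to 613 and 760 in Top2β-null libraries. Sgk1, a kinase induced by serum and glucocorticoids, went from 13252 and 13115 to 57009 and 57755, and the nuclear receptor gene Nr4a2 from 524 and 531 to 1915 and 1901. Their log2 fold changes were 2.16 (SE 0.122), 2.12 (0.0262) and 1.85 (0.0552), with adjusted p of 1.7e-10, 9.3e-19 and 4.4e-14 from edgeR. On the lower side, Dusp1, which encodes the phosphatase that switches off JNK and p38, went from 9554 and 9446 to 883 and 1013 normalized counts. Klf2, a zinc finger factor, went from 2347 and 2303 to 484 and 457, and Ccn2, a matrix protein gene driven by Srf and Yap, from 34864 and 34692 to 7926 and 8216. Their log2 fold changes were -3.32 (SE 0.0448), -2.31 (0.0563) and -2.11 (0.0269), with adjusted p of 2.5e-18, 3.7e-15 and 1.4e-18 from edgeR.

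The Egr family was looked at after its values were seen. Beside Egr1 and Egr3, Egr2 rose from 105 and 108 to 306 and 291 normalized counts (log2 fold change 1.48, SE 0.125, edgeR adjusted p = 2.6e-08), while Egr4 had at most 1 count in any library. Nab1 and Nab2, whose products bind Egr proteins and restrain them, also rose, with log2 fold changes of 1.28 (SE 0.0266, edgeR adjusted p = 5.1e-16) and 1.27 (0.0268, adjusted p = 5.8e-16).

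The next list held genes of other leucine zipper factors that can pair with AP-1 subunits or bind related sites. Of 18, 17 were tested, with 7 higher, 8 lower and 2 (Batf3 and Atf2) not passing, against 37.3% higher and 40.3% lower among genes with a mean over 100, as all 17 had. Of the 17, 1 was called higher and 2 lower, against 8.32% and 7.91% of those genes. These counts are near the background shares. The median absolute log2 fold change was 0.54, as among the other immediate early genes, against 0.42 for all genes tested and 0.35 for those with a mean over 100. Cebpb, an inflammatory and fat cell regulator, went from 4803 and 4468 to 10991 and 11186 normalized counts (log2 fold change 1.26, SE 0.0320, edgeR adjusted p = 6.0e-15). Ddit3, the stress factor CHOP, fell from 2692 and 2740 to 1300 and 1234 (-1.10, SE 0.0472, edgeR adjusted p = 4.6e-12), and Creb5 from 8033 and 8522 to 3984 and 3974 (-1.06, SE 0.0323, edgeR adjusted p = 6.0e-14). Creb5 was no longer called after scaling to the total count.

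Among the kinases and factors upstream of the immediate early response, 25 of 26 were tested, with 16 higher, 8 lower and 1 (Mapk10) not passing. Of all genes tested 32.8% were higher and 33.7% lower, and of those with a mean over 100, 37.3% and 40.3%. By the full rule 3 were called higher and 1 lower of the 24 with a mean over 100, against 8.32% and 7.91% of such genes, so that these counts are near the background shares. The median log2 fold change was 0.36 against -0.01. Map2k6, which activates p38, went from 54.5 and 55.1 to 434 and 411 normalized counts (log2 fold change 2.94, SE 0.131, edgeR adjusted p = 7.7e-12). Rps6ka1, a kinase downstream of ERK, went from 704 and 735 to 1555 and 1593, and Mapkapk2, a kinase downstream of p38, from 10687 and 10615 to 21063 and 21616. Their log2 fold changes were 1.13 (SE 0.0552, edgeR adjusted p = 2.6e-11) and 1.00 (0.0253, adjusted p = 5.6e-15). Mapkapk2 stayed just under 2-fold without wt replicate 1 (0.993) or wt replicate 2 (0.983). Mapk12, a p38 gene of muscle, went from 2427 and 2479 to 726 and 722 (-1.76, SE 0.0505, edgeR adjusted p = 2.8e-14). Srf, named after its values were seen, fell from 11972 and 12061 to 5896 and 6260 normalized counts, with a log2 fold change of -0.98 just short of the 2-fold rule. It passed that rule when wt replicate 1 or Top2β-null replicate 2 was left out, which makes 2 called lower.

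A list of feedback genes, tested in full, held 15 genes that restrain MAP kinase or receptor signalling, together with Nab1 and Nab2, while Dusp1 was counted above among the other immediate early genes. Of these 17, 11 were higher and 6 lower, against 32.8% and 33.7% of all genes tested and 37.3% and 40.3% of those with a mean over 100. By the full rule 7 were called higher and 3 lower of the 16 with a mean over 100, against 8.32% and 7.91% of such genes. The median log2 fold change was 0.64 against -0.01. Without Nab1 and Nab2, a choice made after seeing the data, 5 of 15 were called higher and 3 lower, with a median of 0.47. Spry4, a receptor signalling inhibitor, went from 284 and 287 to 806 and 872 normalized counts. Dusp6, the ERK phosphatase gene, went from 2609 and 2497 to 6686 and 6957, and Dusp10, for a phosphatase of JNK and p38, from 916 and 922 to 2257 and 2329. Their log2 fold changes were 1.56 (SE 0.0762), 1.42 (0.0350) and 1.32 (0.0495), with adjusted p of 2.6e-11, 4.2e-15 and 8.6e-13 from edgeR. Others of the same families fell: Dusp4 from 5892 and 5965 to 1608 and 1650, Spry1 from 716 and 719 to 281 and 259, and Dusp8 from 2305 and 2583 to 1168 and 1221 normalized counts. Their log2 fold changes were -1.86 (SE 0.0366), -1.41 (0.0781) and -1.03 (0.0573), with adjusted p of 2.4e-16, 1.3e-10 and 1.3e-10 from edgeR. Dusp8 was not called after scaling to the total count, without wt replicate 2 or without Top2β-null replicate 1 (-0.96 in each).

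Reported AP-1 target genes were compared last. All 22 were tested, and 14 were higher and 8 lower, against 32.8% and 33.7% of all genes tested and 37.3% and 40.3% of those with a mean over 100. Of the 14, Mmp3, Mmp10, Mmp13, Il6 and Areg had fewer than 10 counts in each wt library. They passed the filter only through the Top2β-null libraries, where they were high, so that their direction was fixed in advance. By the full rule 8 were called higher and 3 lower of the 18 with a mean over 100, against 8.32% and 7.91% of such genes. Of the 8, Il6 and Areg also reached that mean only through the Top2β-null libraries. The median log2 fold change was 1.06 against -0.01, also with Mmp3, which had 1 count in each wt library, set to its lower bound. This median includes Mmp3, Mmp10, Mmp13, Il6 and Areg, and would be lower without them. Areg, an EGF receptor ligand gene, had 2 and 4 raw counts in wt and 484 and 599 in Top2β-null libraries, so that the size of its rise rests on 6 wt counts. No p-value is given for Areg or Il6, which entered the test only through the Top2β-null libraries. The cytokine gene Il6 had 5 and 9 raw counts against 301 and 350, so that its log2 fold change of 5.55 also rests on few wt counts. Spp1, which encodes osteopontin, went from 2355 and 2330 to 91872 and 92697 normalized counts (5.30, SE 0.0321, edgeR adjusted p = 1.0e-21). Other genes of the list fell. The chemokine gene Ccl2 went from 3988 and 4058 to 506 and 498 normalized counts, and the fibronectin receptor gene Itga5 from 37678 and 38460 to 14780 and 14631. Their log2 fold changes were -3.001 (SE 0.0494) and -1.37 (0.0255), with adjusted p of 2.6e-17 and 1.2e-16 from edgeR. Which of these genes AP-1 binds in these cells was not measured.

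**Figure D4:**
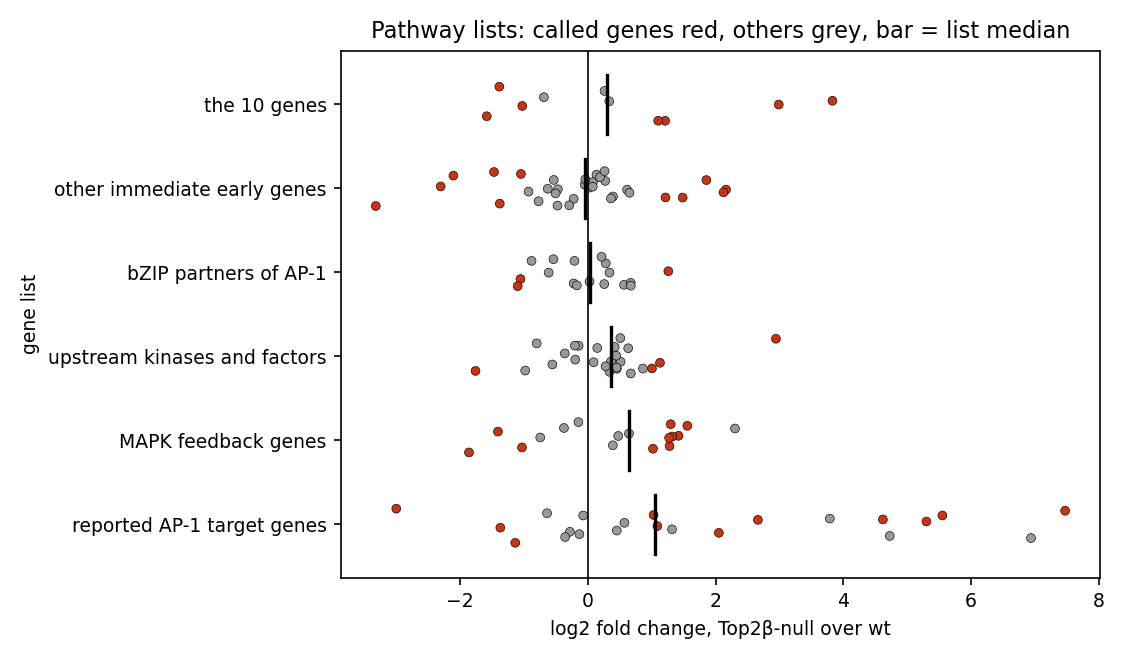
Log2 fold change of Top2β-null over wt (horizontal axis) for each tested gene of the 10 described genes and 5 pathway lists (vertical axis, points spread for visibility), with called genes in red, others in grey and the list median as a bar. Each list has called genes on both sides of 0, and the medians run from -0.04 for other immediate early genes to 1.06 for reported AP-1 targets. The latter median includes genes that entered the test only through the Top2β-null libraries, and would be lower without them.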

How the data were processed

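Paired-end reads of total RNA depleted of ribosomal RNA were trimmed by the authors with Trim Galore!, aligned to mm10 with STAR keeping reads with many alignments, and assigned by TEtranscripts to Gencode genes and to repeat families of RepeatMasker. What the authors deposited are raw counts in whole numbers. The mode and strand setting of the counting are not given in the sources used here.

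Symbols were matched to 54409 of 54842 gene identifiers, and positions and merged exon lengths come from GENCODE M21 (GRCm38). Promoter windows come from RefSeq (GRCm38.p6). A feature entered the test with 10 or more counts in 2 or more libraries, which left 25085 genes and 1481 repeat families. The test was run in R 4.3.3 with edgeR 4.0.16 (TMM factors over genes and repeats, quasi-likelihood test, genotype as the only term), with Benjamini-Hochberg adjustment over all 26566. SEs were obtained by dividing the absolute log2 fold change by the square root of F. Calls needed an adjusted p below 0.05, a log2 fold change beyond 1 in size and a mean above 100 normalized counts, as in the study's methods. A gene with at most 3 counts in each library of a group was taken as being at the floor. The fit was tested on simulated data. The spread within a genotype was above counting noise (3.65 in wt and 5.07 in Top2β-null as chi-square over degrees of freedom), and each library was kept as 1 replicate.

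The members and lists were chosen with earlier results of these data known. Named genes are the 10 members, Top2b, the 3 called genes without overlap that changed most in each direction in each list, and the 3 genes nearest by Euclidean distance to the members that rose and fell most. Others are said to be chosen after their values were seen, or are given as counts. The values of 1 gene that the rule names are not reported here. Alternatives were DESeq2 1.42.0, TMM on genes without repeats, total-count scaling, no filter, at least 100 counts in every library, the replicate number as a block, leaving out each library and, added after seeing the data, the feedback list without Nab1 and Nab2 and the Jun family without Jund.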

Additional observations from a re-analysis of the deposited data

How the results depend on the processing

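All 10 genes kept their direction and an adjusted p below 0.05 in every alternative that could be run, 59 values with all libraries kept and 40 with a library left out. Fos has no value with at least 100 counts in every library, since its wt libraries fall short of that. Over the alternatives the log2 fold change ranged from 2.87 to 3.08 for Fos, 3.78 to 3.90 for Egr1, 0.20 to 0.33 for Fosl1, 0.30 to 0.40 for Junb and -0.72 to -0.62 for Jun. The 4 genes called higher were 3 with at least 100 counts in every library, and the 3 called lower were 2 wherever Atf3 fell short of 2-fold. Of the other leucine zipper factors, 1 was called lower after scaling to the total count instead of 2, because Creb5 moved to less than 2-fold. Of the upstream kinases and factors, 1 to 2 were called lower when single libraries were dropped, with 2 in the absence of wt replicate 1 and in that of Top2β-null replicate 2, as Srf then passed 2-fold. The 3 called higher were 2 without either wt replicate (Mapkapk2) and with at least 100 counts in every library, where Map2k6 has no value. Of the feedback genes called lower, 3 became 2 wherever Dusp8 fell short of 2-fold, and those called higher went from 7 to 6 without wt replicate 1 (Errfi1) or with at least 100 counts in every library (Dusp2). The AP-1 targets called higher went from 8 to 6 with that filter or without either Top2β-null replicate, where Il6 and Areg have no value, and to 7 without wt replicate 1 (Timp1). The other immediate early genes called lower went from 6 to 5 (Arc) with total-count scaling, without wt replicate 2 or without Top2β-null replicate 1. The difference in log2 Fos to Jun family ratio moved to 1.36 without division by gene length and to 0.61 without Jund, against 1.15. Scaling to the total count moved the median of all genes by 0.070. With 1 library left out, the single library of a genotype is assumed to vary like the pair.

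With the replicate number as a replicate block, the counts of the 10 genes called were 4 higher and 3 lower, as without it, and the counts of called genes in the 5 pathway lists were also unchanged. Across 17952 features, which are not independent, libraries sharing a number deviated from their group means with a correlation of 0.0207, and nothing else pairs them.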
